A study of Homo sapiens with 16 samples.

Results

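Primary granule proteins are the cargo that promyelocytes pack into azurophil granules. A set of 10 genes was chosen by symbol under that name: MPO, ELANE, AZU1, PRTN3, CTSG, LYZ, PRG2, RNASE2, SRGN and MS4A3. Not all are such cargo, since MS4A3 encodes a membrane protein of myeloid progenitors. Of these, 6 were found among the 18079 genes of the count table (MPO, CTSG, LYZ, PRG2, RNASE2 and SRGN), and MS4A3 was found among the 3700 genes of the splicing table only. ELANE, AZU1 and PRTN3 were not analysed here, so 7 of the 10 have values.

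HL60, an established human line of promyelocytic leukaemia cells, was grown in culture and exposed for 5 h either to SY-351 at 50 nM, which inhibits the kinase CDK7, or to the solvent DMSO. CDK7 is the kinase of the general transcription factor TFIIH, and the study asked what its loss of activity does to expression, splicing and termination. Polyadenylated RNA was sequenced from 4 numbered SY-351 replicates and 4 numbered DMSO replicates of the same wild-type line, each listed with 2 technical repeats. The labels name no separate cultures, and the p-values below therefore reflect only how these samples spread, which may be technical.

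Azurophil granules are made at the promyelocyte stage, when their genes are transcribed at a high rate under C/EBP factors, PU.1, MYB and RUNX1. MPO makes hypochlorous acid from hydrogen peroxide and chloride, the serine proteases of the granule cut microbial and host proteins, and lysozyme cleaves the bacterial cell wall. Serglycin, the product of SRGN, is the proteoglycan on whose acidic chains these basic proteins are stored. PRG2 and RNASE2 encode the major basic protein and the eosinophil-derived neurotoxin, which are best known as eosinophil granule proteins.

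Promoters are shown for CTSG and RNASE2, a protease gene and a ribonuclease gene, because they are the members that have both counts and a promoter entry. Each window runs from 250 bases before to 50 bases after the start, 5′ to 3′ on the gene's strand, from RefSeq on GRCh38.p14, where 5 of the 10 genes had an entry. Capitals mark matches to PU.1 (GAGGAA), C/EBP (TTGCNNAA), RUNX (TGTGGT) or the TATA box (TATAAA) on either strand.
CTSG, chr14:24576201-24576500, minus strand: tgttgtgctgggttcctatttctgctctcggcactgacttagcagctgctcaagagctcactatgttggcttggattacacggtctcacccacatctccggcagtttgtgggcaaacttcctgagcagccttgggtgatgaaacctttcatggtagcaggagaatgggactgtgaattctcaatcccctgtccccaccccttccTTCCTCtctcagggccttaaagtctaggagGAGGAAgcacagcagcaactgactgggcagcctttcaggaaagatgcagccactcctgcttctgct
RNASE2, chr14:20955237-20955536, plus strand: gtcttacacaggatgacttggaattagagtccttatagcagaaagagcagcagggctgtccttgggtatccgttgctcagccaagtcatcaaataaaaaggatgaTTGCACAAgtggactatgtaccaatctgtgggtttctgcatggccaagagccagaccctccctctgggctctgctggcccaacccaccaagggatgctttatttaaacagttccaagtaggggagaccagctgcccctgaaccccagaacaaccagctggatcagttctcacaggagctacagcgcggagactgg

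The CTSG window held 2 PU.1 matches, with first bases at -46 (read on the opposite strand) and -16 from the start, and no C/EBP, RUNX or TATA match. RNASE2 had 1 C/EBP match, TTGCACAA at -145, and none of the other 3 capitalised motifs. Matches to the MYB motif (AACNG) were present in both and are not capitalised. Of 27305 promoters of the same length, 27.6% held the PU.1 letters, 10.6% the C/EBP letters, 13.1% the RUNX letters, and 77.1% the MYB letters, and 3264 held the TATA letters. A match is a description of these letters and not evidence of binding.

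Depth was 43266151 to 77891655 gene counts per SY-351 library and 103676471 to 124241671 per DMSO library. DMSO 1 and DMSO 2 stood apart from all other libraries. Their log2 profiles over all genes correlated at r = 0.98 with each other, at 0.76 to 0.79 with DMSO 3 and 4, and at 0.73 to 0.76 with SY-351 libraries. DMSO 3 and 4 correlated at 0.94 to 0.95 with SY-351 libraries. The labels give no reason for the split, so results below are given with all 8 libraries, without DMSO 1 and 2, and against DMSO 1 and 2 alone. Across 15114 genes the ratio of DMSO 1 and 2 to DMSO 3 and 4 moved with the GC content of the transcript, with a median log2 ratio of -1.29 in the 3023 genes lowest in GC content and 1.96 in the 3023 highest. Among the members, SRGN (38.1% GC) had a log2 ratio of -6.25 and MPO (58.5% GC) of 1.68, but CTSG (57.2% GC) had -2.25. The part of GC content in the results below was not tested.

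Of 8 markers of immature myeloid cells, 7 were in the table. Most were abundant, but they did not move together. Over all 8 libraries 1 of the 7 was called higher and 2 lower, against 2.91% and 13.6% of all genes. With DMSO 3 and 4 as controls, 2 were higher and 3 lower, where 21.9% and 26.4% of all genes were. Scaling that comparison by total count gave 2 higher and 5 lower, where 2065 of the 8913 genes called were higher. Against DMSO 1 and 2 alone 3 were higher and 3 lower, where 40.8% and 38.4% of all genes were. Their summed level was 2012 to 2177 CPM (the count of a gene relative to library size, scaled between libraries by the TMM method) with SY-351, against 8946.5 and 9090.0 CPM in DMSO 1 and 2 and 1425 and 1854 CPM in DMSO 3 and 4. In DMSO 1 and 2 most of that sum was CEBPA, SPI1 and CEBPE. FCGR1A was low throughout, at 0.73 to 1.28 CPM with SY-351 and 0.78 to 4.17 CPM in DMSO. CD33 was low in DMSO 1 and 2, at 5.64 and 3.10 CPM. CSF3R was the marker called higher (log2 fold 1.18, edgeR adjusted p = 0.0425), a call that ended without any 1 SY-351 library (adjusted p = 0.119 to 0.13) and in 2 of 4 fits without 1 DMSO library.

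Of 12 markers of T, B, erythroid, monocyte, epithelial, fibroblast, endothelial and liver cells, 11 were in the table, summing to 20.72 to 24.65 CPM with SY-351 and 15.09 to 76.5 CPM in DMSO. HBB had no count in SY-351 1 to 3 or in DMSO 4, and CD3D had none in SY-351 3. Of the 9 tested, 1 was called lower and 0 higher with all 8 libraries (1 and 3 at an unadjusted p below 0.05, 1 and 1 by DESeq2, 1 and 0 by limma-voom), although 6 of the 9 folds were positive. That gene was CD14, a monocyte marker (log2 fold -4.51, edgeR adjusted p = 0.0113), at 1.28 to 1.57 CPM with SY-351 against 6.43 to 61.76 CPM in DMSO. Its call ended without any 1 SY-351 library (adjusted p = 0.0527 to 0.0566). When DMSO 1 and 2 were left out, 3 of the 9 were higher and 1 lower, against 21.9% and 26.4% of all genes. Scaling that comparison by total count gave 1 higher and 1 lower, where 2065 of the 8913 genes called were higher. The part of these cell type markers in the granule results was not tested, and in bulk RNA fewer cells of a type and less RNA per cell cannot be told apart.

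In the SY-351 libraries the granule genes were abundant and nearly alike between replicates, whereas in DMSO their levels depended on the pair of controls. Of the 6 measured genes, 5 were higher in every SY-351 library than in every DMSO library, and only MPO overlapped. For comparison, 15.5% of all 15472 genes tested had every SY-351 CPM above every DMSO CPM. Coefficients of variation were 3.85% to 7.19% over the 4 SY-351 libraries and 27.26% to 116.7% over the 4 DMSO libraries. The groups separated for the same number of genes, 5 of 6, by plain share of counts, against 11.2% of all genes.

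With all 8 libraries, edgeR's quasi-likelihood test called 0 of the 6 genes higher and 0 lower, where it called 2.91% of all genes higher and 13.6% lower (Benjamini-Hochberg adjusted p below 0.05). The standard errors of their log2 folds in that fit were 0.43 to 1.42, so a missed threshold there does not show that the genes did not differ. At an unadjusted p below 0.05, 3 were higher and 0 lower, against 1435 and 3492 of all 15472 genes. The all-gene values in this paragraph are also the background for the same tests of the marker and gene lists. DESeq2 called 3 higher and 0 lower, against 8.9% and 24.6% of all genes, and limma-voom 2 and 0, against 3.96% and 10.2%. A filter of 10 CPM in 4 libraries gave 2 higher, against 6.47%. Without DMSO 1 and 2, all 6 measured genes were called higher, where 21.9% of all genes were higher and 26.4% lower. Their median log2 fold there was 1.32, against 0.01 over all genes. Against DMSO 1 and 2 alone, 5 were called higher and 1, MPO, lower, where 40.8% of all genes were higher and 38.4% lower.

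**Figure D1:**
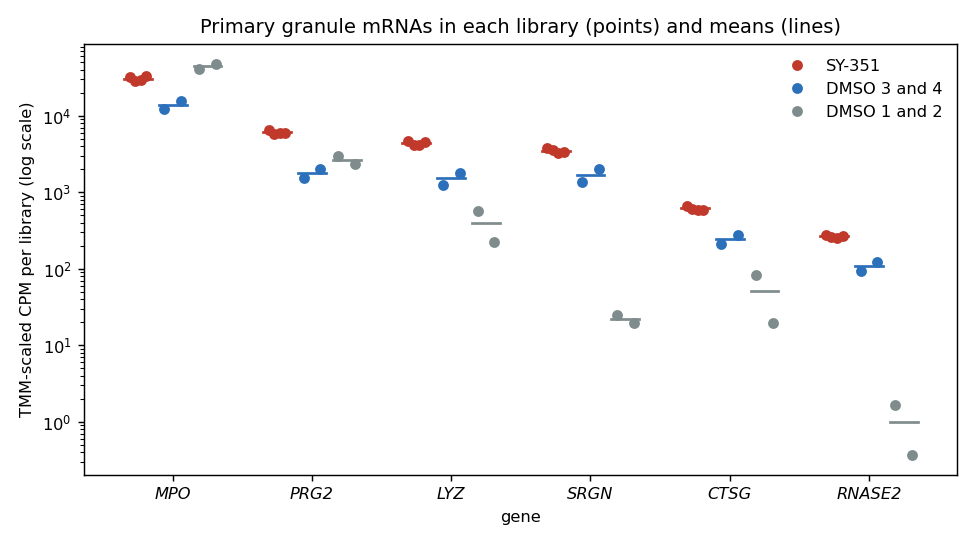
TMM-scaled CPM (log scale) of the 6 measured granule genes, with 1 point per library and lines at the means of the 4 SY-351 libraries, of DMSO 3 and 4 and of DMSO 1 and 2. The SY-351 points lie close together above all DMSO points for each gene but MPO, whose SY-351 points lie between the pairs of DMSO libraries.

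**Figure D2:**
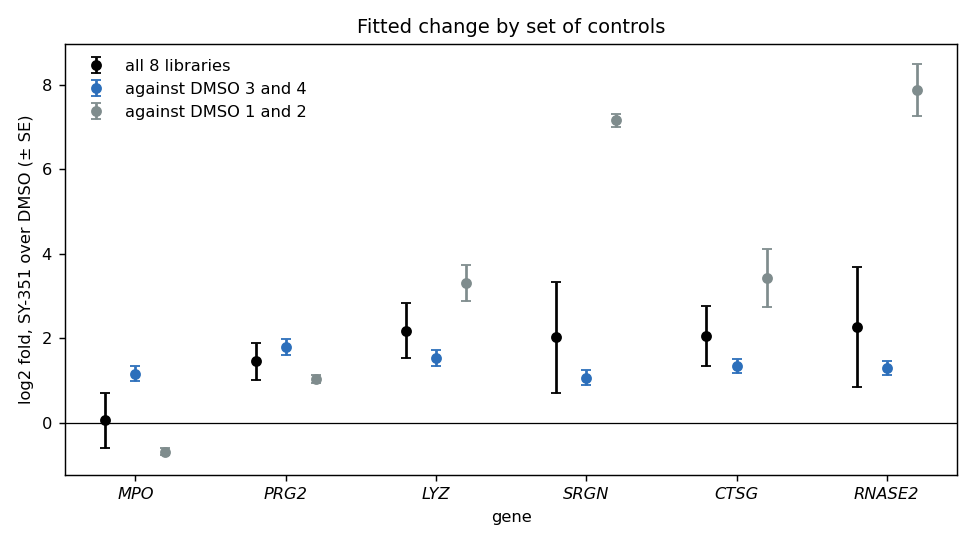
Fitted log2 fold of SY-351 over DMSO with its standard error (edgeR), with all 8 libraries, against DMSO 3 and 4, and against DMSO 1 and 2. Against DMSO 3 and 4 the 6 folds lie between 1.06 and 1.79, while against DMSO 1 and 2 they run from -0.69 for MPO to 7.88 for RNASE2.

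MPO encodes myeloperoxidase, the haem enzyme that gives the granule its classical stain. The gene lies on GRCh38 at chr17:58269854-58280935 on the minus strand, with 12 exons in the transcript counted (NM_000250). It was the highest gene by count in all 8 libraries. MPO measured 32210.5, 28257.6, 29209.5 and 32718.7 CPM with SY-351, against 41360.9, 48112.2, 12116.1 and 15763.8 CPM in DMSO 1 to 4. All 4 SY-351 values thus lay between the pairs of controls, and the groups overlapped. With all 8 libraries the log2 fold was 0.06 ± 0.65, where ± beside a log2 fold is its standard error here and below (edgeR quasi-likelihood adjusted p = 0.956). Against DMSO 3 and 4 MPO was higher, by a log2 fold of 1.16 ± 0.17 (edgeR quasi-likelihood adjusted p = 2.34e-10). Against DMSO 1 and 2 alone it was lower, by -0.69 ± 0.08 (edgeR quasi-likelihood adjusted p = 4.08e-05). On the TMM scale the direction for MPO therefore turned on which controls were used. As a plain share of all gene counts, MPO took 3.276%, 3.003%, 3.126% and 3.356% with SY-351, against 2.733%, 3.16%, 1.946% and 1.905% in DMSO 1 to 4. On that measure DMSO 2 overlapped the SY-351 values, and the other DMSO libraries were below them.

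CTSG encodes cathepsin G, a chymotrypsin-like serine protease, at chr14:24573517-24576250 on the minus strand (5 exons, NM_001911), and its promoter carries the pair of PU.1 matches shown above. Its level was 669.9, 612.6, 586.0 and 591.2 CPM with SY-351, against 83.87, 19.36, 211.3 and 280.2 CPM in DMSO 1 to 4. The groups did not overlap, and DMSO 1 and 2 were below DMSO 3 and 4. The log2 fold was 2.05 ± 0.72 with all 8 libraries and did not pass (edgeR quasi-likelihood adjusted p = 0.0886). CTSG passed without DMSO 1 and 2, at 1.34 ± 0.17, and against them alone, at 3.43 ± 0.69 (edgeR quasi-likelihood adjusted p = 8.95e-14 and 0.00719).

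LYZ encodes lysozyme, which neutrophils and monocytes secrete as well as store, at chr12:69348353-69354233 on the plus strand (4 exons, NM_000239). Its level was 4631.9, 4133.6, 4104.8 and 4564.1 CPM with SY-351, against 575.6, 226.9, 1242.1 and 1814.3 CPM in DMSO 1 to 4. Every SY-351 library was above every DMSO library. The log2 fold was 2.18 ± 0.66 and just missed the threshold (edgeR quasi-likelihood adjusted p = 0.0566). LYZ passed without DMSO 3 or without DMSO 4 and with DESeq2 and limma-voom (adjusted p = 0.000756 with DESeq2 and 0.0347 with limma-voom, and 2.11e-16 to 0.164 over all alternatives). When DMSO 1 and 2 were left out, the log2 fold was 1.53 ± 0.18, and against DMSO 1 and 2 alone it was 3.30 ± 0.43 (edgeR quasi-likelihood adjusted p = 2.11e-16 and 0.000921).

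PRG2 encodes the precursor of major basic protein, a cationic toxin, at chr11:57386779-57390650 on the minus strand (6 exons, NM_002728). Its level was 6444.8, 5759.7, 6037.7 and 6046.1 CPM with SY-351, against 2997.7, 2352.4, 1552.2 and 2018.2 CPM in DMSO 1 to 4. PRG2 varied least between the DMSO libraries, by 1.93-fold from lowest to highest, and its groups did not overlap. Over all 8 libraries its log2 fold was 1.45 ± 0.43, just short of the threshold (edgeR quasi-likelihood adjusted p = 0.0527). It passed without DMSO 1 and 2, at 1.79 ± 0.18, and against them alone, at 1.04 ± 0.10 (edgeR quasi-likelihood adjusted p = 2.48e-21 and 8.51e-06). PRG2 was the only member called higher under total count scaling of all 8 libraries (log2 fold 1.58 ± 0.27, edgeR adjusted p = 0.00537, and 2.48e-21 to 0.223 over all alternatives), where 1.39% of all genes were.

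RNASE2 encodes the eosinophil-derived neurotoxin, a secreted ribonuclease, at chr14:20955486-20956436 on the plus strand (2 exons, NM_002934), downstream of the promoter with the C/EBP match. Its level was 274.1, 262.9, 251.1 and 270.8 CPM with SY-351, against 1.65, 0.37, 95.06 and 124.1 CPM in DMSO 1 to 4. The groups did not overlap, and the DMSO libraries spanned 337.9-fold, with 117 counts in DMSO 1 and 25 in DMSO 2. The log2 fold over all 8 libraries, 2.26 ± 1.42, did not pass (edgeR quasi-likelihood adjusted p = 0.31). RNASE2 passed without DMSO 1 and 2, at 1.29 ± 0.17, and against them alone, at 7.88 ± 0.62 (edgeR quasi-likelihood adjusted p = 1.58e-13 and 8.18e-05). RNASE3 is a related gene of the same family, and reads of similar stretches may be shared between them. The level of RNASE3 was 9.38 to 11.56 CPM with SY-351 and 0.03 to 5.12 CPM in DMSO.

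SRGN encodes serglycin, the granule proteoglycan, at chr10:69087602-69104804 on the plus strand (3 exons, NM_001321053). Its level was 3790.5, 3548.2, 3277.8 and 3407.8 CPM with SY-351, against 25.08, 19.39, 1375.4 and 2031.5 CPM in DMSO 1 to 4. The groups did not overlap, and DMSO 1 and 2 were far below DMSO 3 and 4, the same pair that was low for RNASE2. The log2 fold was 2.02 ± 1.32 with all 8 libraries and did not pass (edgeR quasi-likelihood adjusted p = 0.329). SRGN passed without DMSO 1 and 2, at 1.06 ± 0.18, and against them alone, at 7.16 ± 0.15 (edgeR quasi-likelihood adjusted p = 8.43e-09 and 3.39e-10).

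The scaling between libraries affected these folds. TMM factors were 1.017 to 1.07 with SY-351, 0.6609 and 0.6567 in DMSO 1 and 2, and 1.606 and 1.208 in DMSO 3 and 4. With total count scaling of all 8 libraries MPO had a log2 fold of 0.39 ± 0.33 (edgeR quasi-likelihood adjusted p = 0.569). With total count scaling and without DMSO 1 and 2, the median of all genes was a log2 fold of -0.45, and the members stood at 0.73 (MPO), 0.92 (CTSG), 1.12 (LYZ), 1.36 (PRG2), 0.87 (RNASE2) and 0.65 (SRGN). All 6 were called higher there too, against 13.1% of all genes. Of the 15811 genes tested in that fit 8913 were called in either direction, 2065 of them higher. In the comparison without DMSO 1 and 2 under TMM scaling, the fold of PRG2 stood at percentile 98.22 of all genes, that of LYZ at 97.2 and that of SRGN, the lowest, at 91.41.

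Counted together, the 6 genes took 4.88%, 4.53%, 4.65% and 4.88% of all gene counts with SY-351, against 2.98%, 3.33%, 2.66% and 2.66% in DMSO 1 to 4. The SY-351 shares were all above the DMSO shares, and the means were 4.74 ± 0.18% with SY-351 and 2.91 ± 0.32% in DMSO (SD, n = 4 each). The composition differed more than the sum. MPO made up 66.37% to 68.74% of the members' counts with SY-351, 71.55% to 73.02% in DMSO 3 and 4, and 91.82% to 94.84% in DMSO 1 and 2. Without MPO the other 5 genes took 1.55 ± 0.04% with SY-351 and 0.47 ± 0.31% in DMSO (SD, n = 4 each). As a percent of the TMM-scaled library size the sum was 4.54 ± 0.28% with SY-351 and 3.36 ± 1.68% in DMSO (SD, n = 4 each), and the mean of DMSO 1 and 2 on that scale, 4.79%, was above that with SY-351.

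**Figure D3:**
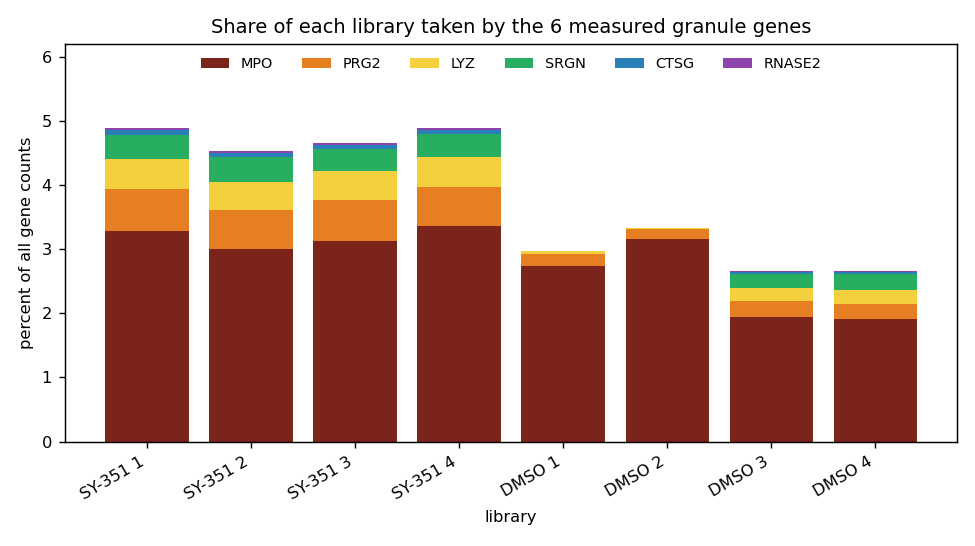
Percent of all gene counts in each library taken by the 6 measured granule genes, stacked by gene, SY-351 libraries left of DMSO libraries. The stacks reach 4.53% to 4.88% with SY-351 and 2.66% to 3.33% in DMSO, and MPO fills nearly the whole stack in DMSO 1 and 2.

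Levels of different genes were compared per kb of transcript, as CPM per kb, with the limit that intronic reads are in the counts. With SY-351 the order was MPO (9517.6 ± 683.9), PRG2 (4264.1 ± 197.9), SRGN (2902.4 ± 181.6), LYZ (2848.7 ± 181.7), CTSG (694.0 ± 43.36) and RNASE2 (350.6 ± 13.51; SD, n = 4). SRGN and LYZ differed by less than their spread, and the other neighbours in that order differed by more. The order differed between the pairs of controls. In DMSO 3 and 4 the means per kb of transcript were 4335.9 for MPO, 1410.2 for SRGN, 1253.6 for PRG2, 998.8 for LYZ, 277.3 for CTSG and 145.1 for RNASE2. In DMSO 1 and 2 they were 13914.9 for MPO, 1878.6 for PRG2, 262.3 for LYZ, 58.25 for CTSG, 18.4 for SRGN and 1.34 for RNASE2. Counted per kb of the whole interval, SRGN, with the longest interval (17203 bases), moved to the last place with SY-351, at 203.8 ± 12.76 CPM per kb (SD, n = 4).

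The profile over the 8 libraries, as log2 CPM centred on its mean, was compared between genes by root mean square difference among 8226 genes with at least 10 CPM on average. CTSG and LYZ were alike (0.28, LYZ being rank 7 for CTSG and CTSG rank 10 for LYZ), and RNASE2 and SRGN less so (0.61). MPO and RNASE2 differed most among the members, by 3.88. The nearest genes to MPO were ADA (0.05), PEBP1 (0.05) and LAMP1 (0.08), and those nearest to LYZ were ATP5F1E (0.12), UBL5 and MICOS10 (0.20 each). SRGN was nearest to RPS7 (0.11), EEF1A1 (0.12) and SEM1 (0.13), RNASE2 to RPS29, RPL39 and COX7C (0.16, 0.16 and 0.17), and PRG2 to BST1, PSAP and DYSF (0.14, 0.14 and 0.15). These values describe 8 libraries, and all of them share the split within DMSO.

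No counted gene overlapped a member, and the nearest genes within 50 kb moved with their member in some cases and not in others. LPO, the lactoperoxidase gene 1336 bases from MPO on the opposite strand, had log2 folds of 0.80 ± 0.24 with all 8 libraries, 0.66 ± 0.16 without DMSO 1 and 2 and 0.83 ± 0.09 against them alone (edgeR quasi-likelihood adjusted p = 0.0533, 0.000176 and 2.65e-05). TSPOAP1, 20295 bases from MPO, was higher without DMSO 1 and 2 and lower against them alone, as MPO was (1.26 ± 0.17 and -0.84 ± 0.07, edgeR quasi-likelihood adjusted p = 6.28e-13 and 3.33e-06). It did not pass with all 8 libraries (-0.03 ± 0.52, adjusted p = 0.975). METTL17, 33543 bases from RNASE2, had 1.11 ± 0.39 with all 8 libraries, and was higher without DMSO 1 and 2 and against them alone, as RNASE2 was (0.66 ± 0.16 and 1.68 ± 0.22, edgeR quasi-likelihood adjusted p = 0.0909, 0.000202 and 0.000234). PRG3, the paralogue of PRG2 at a distance of 5629 bases, had 2.43 ± 0.93, 1.56 ± 0.28 and 5.23 ± 0.49 in the same 3 comparisons (edgeR quasi-likelihood adjusted p = 0.113, 1.01e-07 and 6.95e-06).

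YEATS4, a chromatin reader gene 5509 bases from LYZ, was lower in all 3, with -1.63 ± 0.46, -0.57 ± 0.16 and -2.37 ± 0.11 (edgeR quasi-likelihood adjusted p = 0.0466, 0.000793 and 3.09e-08), and its call with all 8 libraries ended without any 1 SY-351 library. SLC43A3, a transporter gene 16303 bases from PRG2, had -0.12 ± 0.47 with all 8 libraries. It was lower without DMSO 1 and 2 but higher against them alone (-0.66 ± 0.16 and 0.68 ± 0.23, edgeR quasi-likelihood adjusted p = 0.879, 8.51e-05 and 0.0319 for the 3 sets). VPS26A, 19373 bases from SRGN, passed only against DMSO 1 and 2 alone, where SRGN was also far higher (5.33 ± 0.20, edgeR quasi-likelihood adjusted p = 8.31e-09). It had 0.67 ± 1.18 with all 8 libraries and -0.28 ± 0.16 without DMSO 1 and 2 (adjusted p = 0.723 and 0.135). GZMH, the nearest to CTSG, was too low to be tested.

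Among other azurophil granule genes, BPI and CD63 were higher under each set of controls. With all 8 libraries 2 of 4 tested were higher and 0 lower, against 2.91% and 13.6% of all genes (at an unadjusted p below 0.05 also 2 and 0, with DESeq2 3 and 0, with limma-voom 2 and 0). Without DMSO 1 and 2 all 4 were higher, against 21.9% of all genes (median log2 fold 1.70), and against DMSO 1 and 2 alone 3 were higher and 1 lower, where 40.8% and 38.4% of all genes were. BPI, which binds bacterial lipopolysaccharide, measured 627.4, 602.2, 616.4 and 633.0 CPM with SY-351, against 101.9, 94.99, 117.6 and 145.5 CPM in DMSO 1 to 4. On the TMM scale BPI thus had a similar level in all 4 controls, and its log2 fold was 2.43 ± 0.31 (edgeR quasi-likelihood adjusted p = 0.00355). The TMM factors were 0.6609 and 0.6567 in DMSO 1 and 2 but 1.606 and 1.208 in DMSO 3 and 4, so the levels before scaling were less alike. CD63, a granule membrane tetraspanin, had a log2 fold of 2.07 ± 0.35 (edgeR quasi-likelihood adjusted p = 0.00828) and was above all controls in each SY-351 library. Against DMSO 3 and 4 the log2 folds of BPI and CD63 were 2.26 and 1.71, and against DMSO 1 and 2 alone 2.51 and 2.44. PRSS57, a serine protease of the same granule, turned with the controls in the same directions as MPO. It had 1.11 ± 0.17 without DMSO 1 and 2 and -2.71 ± 0.07 against them alone (edgeR quasi-likelihood adjusted p = 2.34e-10 and 7.74e-10). With all 8 libraries PRSS57 had -1.68 ± 0.87 and did not pass (edgeR quasi-likelihood adjusted p = 0.228).

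The other 4 eosinophil granule genes also stood above DMSO in all 3 sets of controls by their fitted folds. None of the 4 passed with all 8 libraries in edgeR (2 higher at an unadjusted p below 0.05, 1 higher with DESeq2 and 0 with limma-voom), and all 4 were higher without DMSO 1 and 2 and against them alone, where 21.9% and 40.8% of all genes were. EPX, the eosinophil peroxidase gene, measured 2087.5 to 2208.6 CPM with SY-351 and 492.2 to 1413.2 CPM in DMSO (log2 fold 1.26 ± 0.45, edgeR quasi-likelihood adjusted p = 0.0904). CLC, the Charcot-Leyden crystal protein gene, was near 0 in DMSO 1 and 2 (1.61 and 0.48 CPM), like RNASE2, and at 131.6 to 154.0 CPM with SY-351.

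Acid hydrolases, which azurophil granules share with lysosomes, turned with the controls. When DMSO 1 and 2 were left out, all 12 were higher, against 21.9% of all genes (median log2 fold 1.16), while with DMSO 1 and 2 as the only controls 9 were lower and 2 higher, against 38.4% and 40.8%. Over all 8 libraries edgeR called 0 of the 12 in either direction, with 1 higher and 0 lower at an unadjusted p below 0.05 and 0 with DESeq2 and limma-voom. CTSD, the aspartic protease cathepsin D, measured 1194.7 to 1320.5 CPM with SY-351, against 2714.6 and 2768.7 CPM in DMSO 1 and 2 and 309.3 and 404.9 CPM in DMSO 3 and 4.

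Genes that activate or inhibit granule proteases were also mixed. With all 8 libraries 0 of 9 were called (2 higher and 0 lower at an unadjusted p below 0.05, 2 and 0 by DESeq2, 1 and 0 by limma-voom). Without DMSO 1 and 2, 6 were higher and 0 lower (21.9% and 26.4% of all genes). Total count scaling of that comparison gave 4 higher and 2 lower, where 2065 of the 8913 genes called were higher. Against DMSO 1 and 2 alone 3 were higher and 4 lower (40.8% and 38.4%). CTSC encodes the dipeptidyl peptidase that activates the granule serine proteases. It had -0.50 ± 0.40 with all 8 libraries, 0.29 ± 0.16 without DMSO 1 and 2, and was lower against them alone, at -1.14 ± 0.09 (edgeR quasi-likelihood adjusted p = 0.424, 0.131 and 1.24e-06). CST7, an inhibitor of such cathepsins, turned with the controls, with -0.41 ± 0.66, 1.33 ± 0.18 and -1.32 ± 0.06 in the same order (edgeR quasi-likelihood adjusted p = 0.697, 4.28e-13 and 4.73e-08).

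Genes for the chondroitin chains that serglycin carries were mostly lower. Of 12 tested, 6 were lower and 0 higher with all 8 libraries, against 13.6% and 2.91% of all genes (8 lower and 1 higher at an unadjusted p below 0.05, 9 and 0 by DESeq2, 5 and 0 by limma-voom). The count lower fell to 2 without any 1 SY-351 library or without DMSO 1, and to 3 without DMSO 2. With DMSO 3 and 4 as controls, 8 were lower and 1 higher, against 26.4% and 21.9% of all genes (median log2 fold -0.49), and DMSO 1 and 2 as sole controls gave 10 lower and 2 higher, against 38.4% and 40.8%. Total count scaling without DMSO 1 and 2 gave 10 lower and 1 higher, where 2065 of the 8913 genes called were higher. CHPF2, a chondroitin polymerising factor, had -2.67 ± 0.62 with all 8 libraries, -1.13 ± 0.16 without DMSO 1 and 2 and -3.54 ± 0.09 against them alone (edgeR quasi-likelihood adjusted p = 0.0238, 2.99e-12 and 6.25e-10). CHST12, a chondroitin sulfotransferase, had -2.37 ± 0.69, -0.48 ± 0.16 and -3.30 ± 0.08 (edgeR quasi-likelihood adjusted p = 0.0494, 0.00557 and 5.33e-10). Without any 1 SY-351 library neither call with all 8 libraries held (adjusted p up to 0.0905 for CHPF2 and 0.14 for CHST12). CHST11, another sulfotransferase, had -0.74 ± 0.33 and -0.21 ± 0.16 and did not pass in either, and was lower against DMSO 1 and 2 alone, at -1.25 ± 0.07 (edgeR quasi-likelihood adjusted p = 0.162, 0.296 and 1.08e-07).

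Genes of granule sorting and release and of the haem and chaperone supply of MPO were mixed. Of 16 sorting genes, 3 were lower and 0 higher with all 8 libraries, near the 13.6% and 2.91% of all genes (4 lower and 2 higher at an unadjusted p below 0.05, 4 and 2 by DESeq2, 3 and 0 by limma-voom). When DMSO 1 and 2 were left out, 8 were higher and 5 lower (21.9% and 26.4% of all genes), and against them alone 8 were higher and 8 lower (40.8% and 38.4%). Total count scaling without DMSO 1 and 2 gave 6 higher and 8 lower, where 2065 of the 8913 genes called were higher. UNC13D, which primes granules for fusion, turned with the controls, with -1.27 ± 0.63 with all 8 libraries, 0.37 ± 0.16 without DMSO 1 and 2 and -2.15 ± 0.06 against them alone (edgeR quasi-likelihood adjusted p = 0.207, 0.0476 and 1.98e-09).

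Of 10 haem and chaperone genes, 1 was lower and 0 higher with all 8 libraries, near the background of 13.6% and 2.91% (3 and 1 at an unadjusted p below 0.05, 3 and 0 by DESeq2, 1 and 0 by limma-voom). Without DMSO 1 and 2, 2 were lower and 4 higher (26.4% and 21.9% of all genes), and against them alone 5 were lower and 2 higher (38.4% and 40.8%). Total count scaling without DMSO 1 and 2 gave 3 lower and 3 higher, where 2065 of the 8913 genes called were higher. ALAS1, the first enzyme of haem synthesis, was at 29.65 to 34.66 CPM with SY-351, against 64.7 and 15.92 CPM in DMSO 1 and 2 and 154.1 and 201.3 CPM in DMSO 3 and 4. It was lower without DMSO 1 and 2 (-2.49 ± 0.15), and did not pass with all 8 libraries or against DMSO 1 and 2 alone (-1.80 ± 0.66 and -0.51 ± 0.52, edgeR quasi-likelihood adjusted p = 8.24e-56, 0.102 and 0.401). CALR, a chaperone of MPO folding, did not pass in any of the 3, with 0.21 ± 0.39 with all 8 libraries (edgeR quasi-likelihood adjusted p = 0.733).

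Most transcription factors known to act on primary granule genes were lower or did not pass the test. Of 13 tested, 7 were lower and 0 higher with all 8 libraries, against 13.6% and 2.91% of all genes (10 lower and 0 higher at an unadjusted p below 0.05 and also by DESeq2, 7 and 0 by limma-voom). That count was 0 without any 1 SY-351 library, and 4 without DMSO 1. With DMSO 3 and 4 as controls, 8 were lower and 0 higher (26.4% and 21.9% of all genes). With DMSO 1 and 2 as the only controls, 12 were lower and 1 higher (38.4% and 40.8%). CEBPA, the C/EBP factor that starts the granulocyte programme, measured 89.59, 90.93, 86.15 and 85.87 CPM with SY-351, against 3839.4, 4330.4, 395.3 and 536.0 CPM in DMSO 1 to 4. The groups did not overlap, and the fitted change was a log2 fold of -4.69 ± 0.91 with all 8 libraries, -2.38 ± 0.15 without DMSO 1 and 2 and -5.68 ± 0.07 against them alone (edgeR quasi-likelihood adjusted p = 0.0132, 1.53e-52 and 1.64e-10). Its call with all 8 libraries ended without any 1 SY-351 library (adjusted p = 0.0607 to 0.0632).

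CEBPE, the C/EBP factor of later granulocytes, had -3.37 ± 0.77 with all 8 libraries, -1.35 ± 0.15 without DMSO 1 and 2 and -4.32 ± 0.07 against them alone (edgeR quasi-likelihood adjusted p = 0.0228, 3.92e-17 and 1.84e-10). GFI1, a repressor needed for neutrophil formation, had -2.29 ± 0.48, -1.30 ± 0.15 and -3.01 ± 0.08 (edgeR quasi-likelihood adjusted p = 0.0168, 2.48e-16 and 9.04e-10). MYB, which acts in progenitors, had -0.95 ± 0.27, -0.90 ± 0.15 and -1.13 ± 0.12 (edgeR quasi-likelihood adjusted p = 0.0448, 3.01e-08 and 1.9e-05). The calls of these 3 with all 8 libraries also ended without any 1 SY-351 library (adjusted p up to 0.0886 for CEBPE, 0.0748 for GFI1 and 0.164 for MYB). SPI1, the gene of PU.1, did not pass with all 8 libraries or without DMSO 1 and 2 under TMM scaling. Its log2 folds there were -2.33 ± 0.81 and -0.04 ± 0.16 (edgeR quasi-likelihood adjusted p = 0.0855 and 0.878). RUNX1 likewise had -1.31 ± 0.57 and 0.12 ± 0.16 (edgeR quasi-likelihood adjusted p = 0.157 and 0.6). SPI1 and RUNX1 were both lower against DMSO 1 and 2 alone, by -3.31 ± 0.06 and -2.15 ± 0.10 (edgeR quasi-likelihood adjusted p = 2.31e-10 and 2.66e-08).

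Secondary granule genes, which normally follow the primary ones in maturation, were higher in 9 of 12 and lower in 0 without DMSO 1 and 2, against 21.9% and 26.4% of all genes (median log2 fold 1.75). With DMSO 1 and 2 as sole controls 8 were higher and 2 lower, against 40.8% and 38.4%. Over all 8 libraries 1 was higher and 0 lower, against 2.91% and 13.6% (6 higher and 2 lower at an unadjusted p below 0.05, 7 and 2 with DESeq2, 3 and 0 with limma-voom). LTF, the lactoferrin gene, was the call, at 41.66 to 48.20 CPM with SY-351 and 2.99 to 7.33 CPM in DMSO (log2 fold 3.16 ± 0.36, edgeR quasi-likelihood adjusted p = 0.00315). CEACAM8 was at 156.9 to 172.5 CPM with SY-351, against 0.48 and 0.16 CPM in DMSO 1 and 2 and 29.93 and 41.43 CPM in DMSO 3 and 4.

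**Figure D4:**
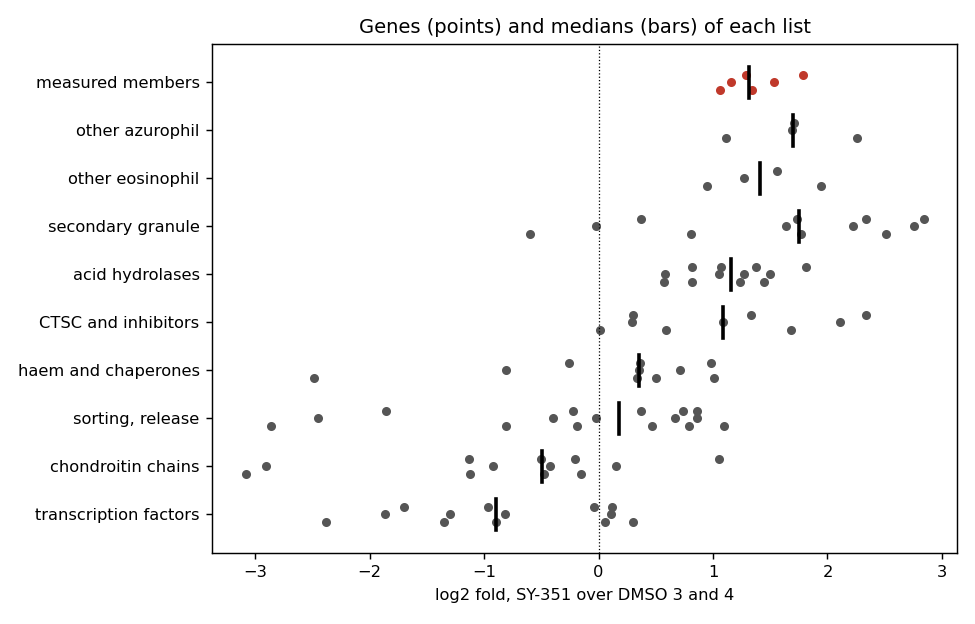
Log2 fold of SY-351 over DMSO 3 and 4 (edgeR) for each tested gene of the granule lists, with a bar at the median of each list. Medians run from 1.75 for secondary granule genes and 1.70 for other azurophil genes down to -0.49 for chondroitin chain genes and -0.90 for the transcription factors.

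MS4A3, a membrane protein of myeloid progenitors, was measured only by its splicing. The authors' deposited table gives expected inclusion of each junction from 0 to 1 in SY-351 and in control cells, the expected difference, turned here to SY-351 minus control, and the posterior probability that this difference is at least 0.20 in size. It has no values per sample, and a folder name in it says that outliers were left out, without naming them. The table lists 2 variations for MS4A3, and both have a junction past a probability of 0.95, as do 55.7% of the 6716 variations listed in all genes. Of those 6716, 6658 have a junction past 0.5. The 55.7% is therefore a share of listed variations, nearly all past 0.5, and not of all splicing.

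In the first variation, junctions enter a 100-base exon. In the authors' deposited table, joining the 385-base exon to a site 35 bases inside it had an inclusion of 0.869 with SY-351 and 0.462 in control, an expected difference of 0.411 (probability 0.974). Joining the same exon to the start of the 100-base exon had 0.003 with SY-351 and 0.333 in control in the authors' deposited table (difference -0.314, probability 0.894). The junction from a 154-base exon, which skips the 385-base exon and also joins 35 bases in, had 0.127 with SY-351 and 0.204 in control there, and its expected difference in the authors' deposited table, -0.011 (probability 0.00486), was smaller than the gap between those values. In both groups most of the use by these values went to the site 35 bases in, and use of the start of the exon was lower with SY-351. The authors mark the junctions from the 154-base exon and to the start of the 100-base exon as de novo. They do not so mark the junction from the 385-base exon to the site 35 bases in.

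In the second variation, junctions enter a 95-base exon. The junction from the 67-base exon had an inclusion of 0.560 with SY-351 and 0.985 in control in the authors' deposited table, a difference of -0.424 (probability 0.998). The junction from the 385-base exon, which skips 2 exons, had 0.284 with SY-351 and 0.007 in control in the authors' deposited table (difference 0.261, probability 0.790). The junction from the 202-base exon, which skips 1 exon, had 0.156 with SY-351 and 0.007 in control there (difference 0.077, probability 0.0445 in the authors' deposited table). Exon-skipping junctions were thus used more with SY-351 by these expected values, with only the loss of the junction from the 67-base exon past 0.95. All junctions of this second variation, that from the 67-base exon included, are marked as de novo by the authors. How much MS4A3 RNA there was in each group was not analysed here.

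**Figure D5:**
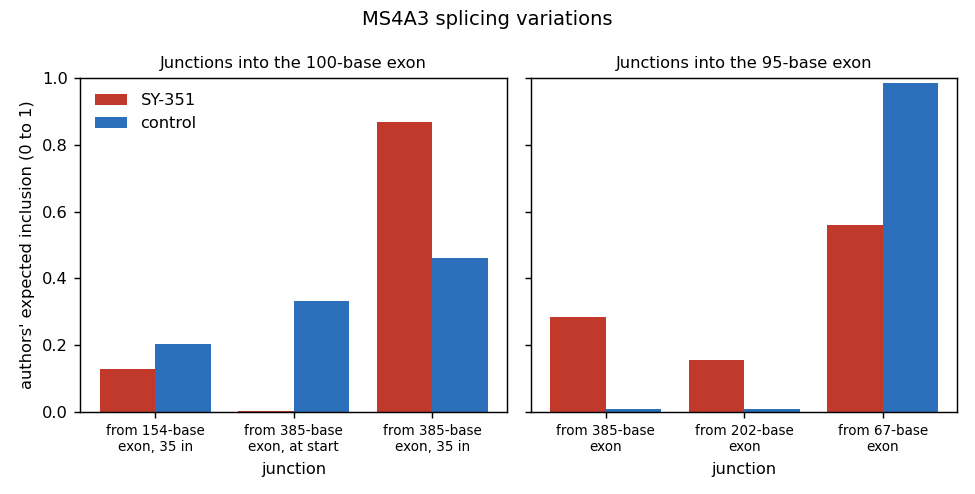
Expected inclusion (0 to 1) of the 3 junctions of each MS4A3 variation in the authors' deposited table, SY-351 left of control. With SY-351 the junction 35 bases inside the 100-base exon reaches 0.869 against 0.462 in control, and that from the 67-base exon falls to 0.560 against 0.985 in control.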

How the data were processed

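RNA was TRIzol-extracted, enriched for poly(A) and made into Illumina TruSeq libraries, per the labels' protocols. The authors ran featureCounts 1.6.2 (strand setting 1) over 1 RefSeq interval per gene, introns included, and deposited raw read counts, per the file headers. GRCh38 and DESeq2 come from the submitters' processing notes. Each of the 8 count columns stands for a numbered replicate. How its 2 technical repeats were joined is not given in the sources used here, nor is whether the kit kept strand. Of 18093 rows, 17871 got a symbol from a RefSeq table and 132 from GENCODE, 90 kept their identifier, and 14 sharing a symbol were set aside. Starts are as in the file.

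The authors' deposited splicing table gives inclusion as a fraction from 0 to 1, its difference (a signed score) and a posterior probability, itself a fraction, per the file headers. Its difference was control minus SY-351 and was turned. In all 15284 entries with a difference of at least 0.05 in size the sign matched. No splicing coordinates are printed.

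From the counts, genes were filtered with filterByExpr, scaled by TMM and fitted with edgeR 4.0.16 (R 4.3.3) by robust quasi-likelihood, with group as the only term. P-values are two-sided and Benjamini-Hochberg adjusted over all genes. SE is the log2 fold over the square root of F. DESeq2 1.42.0 and limma-voom (limma 3.58.1) were alternatives, as were other scalings and filters and leaving out libraries. The fit was tested on simulated data, where it recovered most made changes without DMSO 1 and 2 but none with all 8 libraries. The simulated libraries held no split between pairs of controls, so they cannot show what the fit finds in these data. With all 8 libraries the fit called 2550 genes of these data.

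Members and lists were chosen with earlier results of these data known. Named list genes are the 3 highest by mean CPM per list and the granule regulators CEBPA, CEBPE, SPI1, MYB, RUNX1 and GFI1. Neighbours are the nearest rows within 50 kb. CD14, CD3D, HBB and CSF3R were named after their values were seen. Protein sequences were not used here.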

Additional observations from a re-analysis of the deposited data

How the results depend on the processing

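The number of genes called among all tested was 2550 with all 8 libraries, 5183 with DESeq2, 7638 without DMSO 1 and 2, 12368 against DMSO 1 and 2 alone, 8913 without DMSO 1 and 2 under total count scaling (an alternative chosen after seeing the data), and 539 to 5323 when 1 library was left out. With the replicate number as a block, edgeR called 0 genes and 0 members. Deviations of equally numbered SY-351 and DMSO libraries from their group means correlated at -0.18 to 0.01. These values cannot decide whether the numbers pair the samples, because the deviations within DMSO hold the split between its pairs. Members called higher numbered 0 with all 8 libraries, 1 with total count scaling (PRG2), 3 with DESeq2, 2 with limma-voom, 2 with a filter of 10 CPM in 4 libraries, 6 without DMSO 1 and 2, 5 against them alone, 6 without them under total count scaling, and 0 to 2 when 1 library was left out (LYZ and PRG2 without DMSO 3, LYZ without DMSO 4). Members called lower numbered 0, and 1 (MPO) against DMSO 1 and 2 alone.

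The log2 fold of MPO, 0.06, reversed to -0.17 with DESeq2 and with its size factors in edgeR and to -0.69 against DMSO 1 and 2 alone, and ranged from -0.16 to 0.40 when 1 library was left out. The other 5 members kept their direction in all 18 alternatives, and PRG2 ranged from 1.04 to 1.79. The difference in the members' share of counts, 1.83 points, was 1.18 points of TMM-scaled library size. Of 456 recomputed list counts, 316 were within 1.5 times the first count or were 0 in both, 92 were larger and 48 smaller. The cause of these shifts was not tested. The lowest member count, 25 for RNASE2 in DMSO 2, was above the floor of 3 counts.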
